A study of Mus musculus with 2 samples.

Results

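Protocadherins, Celsr, Fat and Dachsous cadherins and calsyntenins were followed in mouse cells as they left naive pluripotency in culture. The members were all listed genes whose symbol begins with Pcdh, Celsr, Dchs or Clstn, or is Fat1, Fat2, Fat3 or Fat4. There were 75 of them among 18032 listed genes, of which 53 were protocadherins of the alpha, beta and gamma clusters and 22 lay outside these clusters. Polyadenylated RNA was sequenced in 1 library per state. The cEpiSC library came from wild-type cells converted in vitro towards epiblast stem cells. They were seeded on fibronectin in 2iLIF and, 24 h later, given N2B27 with activin A (20 ng/ml) and FGF2 (12 ng/ml) for 2 days. The mESC library came from wild-type embryonic stem cells of the line ES-E14TG2a, kept in 2iLIF. That medium is N2B27 with 1 µM PD0325901, an inhibitor that blocks ERK activation, 3 µM CHIR99021, which inhibits GSK3 and thereby activates Wnt signalling, and LIF at 100 units/ml. All cells therefore shared the N2B27 base and, before conversion, 2iLIF. State, medium and inhibitors cannot be told apart in this design. Each state has a single library, so the differences carry no p-value and were not checked in replicates.

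Cadherins are calcium-dependent adhesion proteins of the cell surface. The classical members bind catenins and, through them, actin. Protocadherins lack that catenin-binding tail, and the clustered ones are known from neurons, where cells choose among alternative first exons and so carry different surface identities. Fat and Dachsous are giant cadherins that bind each other between cells and feed into planar cell polarity and growth control, Celsr proteins are 7-pass cadherins at the centre of planar cell polarity, and calsyntenins are cadherin-like proteins known for linking cargo to kinesin.

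The libraries held 1.996e+07 (cEpiSC) and 1.984e+07 (mESC) estimated counts. CPM is the count relative to the library's size after scaling by edgeR's TMM factors, and TPM, deposited by the authors, is the level per unit of transcript length. The state labels were set beside markers. The marker lists were drawn up with earlier results of these data known, so they are not an independent check of the labels. The 8 matched primed markers all exceeded 2-fold towards cEpiSC, and 6 of 8 naive markers were lower there by 2-fold or more, among them Tfcp2l1 (59.3 CPM in cEpiSC, 677 CPM in mESC) and Klf2 (101 CPM in cEpiSC, 443 CPM in mESC), both transcription factor genes of the naive state. Pou3f1, which encodes the primed-state factor Oct6, had 961 counts in cEpiSC and 10 in mESC. The naive marker Dppa3 was at 27.1 CPM in cEpiSC and 22.1 CPM in mESC. Among the 13243 genes that reached 1 CPM in a library, 13.6% passed 2-fold towards cEpiSC and 9.25% towards mESC. The primed marker Dnmt3b returns below among the regulators of the clusters, so its ratio there is not a separate result.

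Outside the clusters, 5 members reached 10 CPM in a library: Clstn1, Fat1 and Celsr1 were lower in cEpiSC, and Clstn3 and Pcdh1 higher. A pair of protocadherins, Pcdh1 and Pcdh8, was far higher. Only 9 of the 22 genes reached 1 CPM in either library. Genes at that level are called tested here, in that their ratio was set against 2-fold by its size alone. Of these 9, 2 were at least 2-fold higher in cEpiSC (Pcdh1 and Pcdh8), 4 at least 2-fold lower (Clstn1, Celsr1, Celsr3 and Pcdh19) and 3 within 2-fold (Clstn3, Celsr2 and Fat1). Over all 13243 genes at 1 CPM or more, 13.6% were at least 2-fold higher and 9.25% at least 2-fold lower. Under 10 CPM in both libraries, where 4 of the 9 lay, these shares were 32.8% and 12.9%. Both higher members and 3 of the lower also had a 95% counting interval wholly past 2-fold, against 9.15% (higher) and 6.34% (lower) of all genes tested. The median log2 ratio of the 9 was -0.82, beside -0.02 for all genes tested. The 11 protocadherins outside the clusters summed to 33.1 CPM in cEpiSC and 12.3 CPM in mESC, and the 3 Celsr genes to 32.7 CPM in cEpiSC and 70.1 CPM in mESC.

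**Figure D1:**
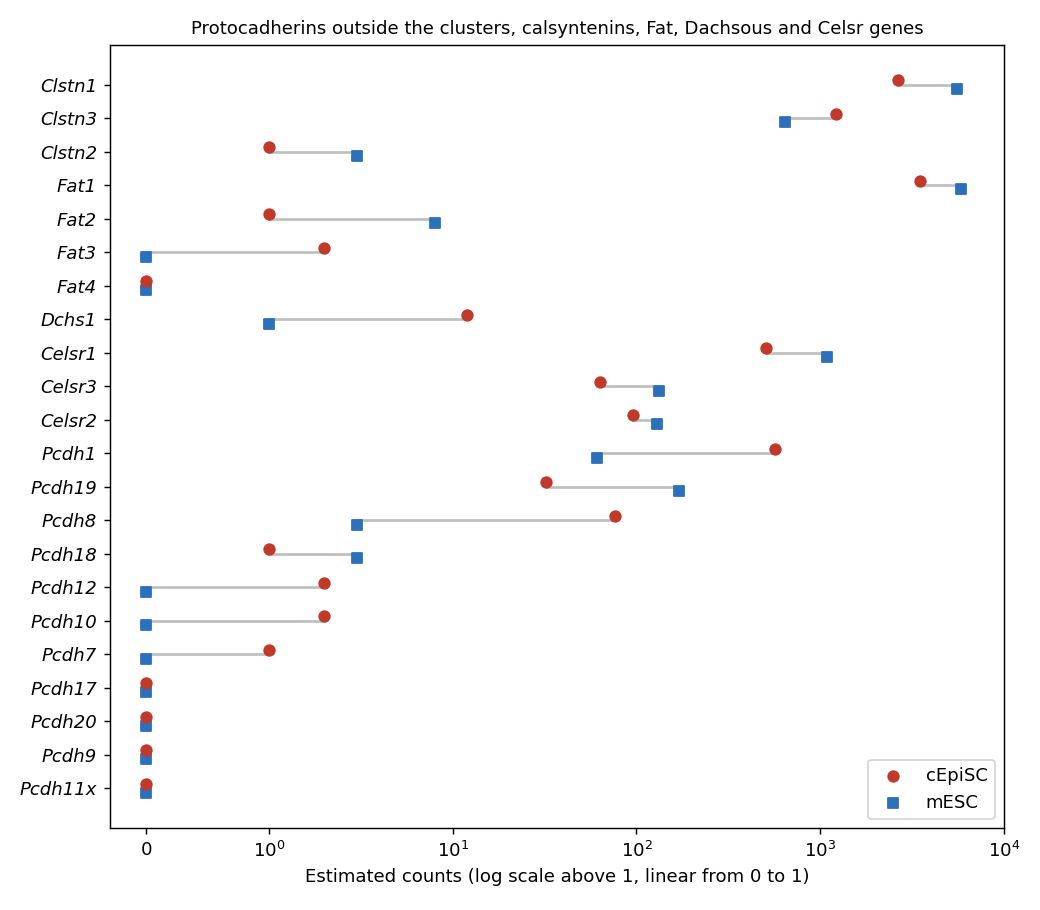
Estimated counts (horizontal axis, logarithmic above 1) of the 22 genes outside the clusters, with 1 point for the cEpiSC library (circle) and 1 for the mESC library (square). Clstn1, Fat1, Celsr1 and Pcdh19 lie to the left in cEpiSC, Pcdh1, Pcdh8 and Clstn3 to the right, and 13 genes stay under 1 CPM in both libraries.

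Promoter windows of 4 of these genes are shown because they stand at the ends of the comparison: among the 9 tested genes outside the clusters Pcdh8 had the highest ratio and Pcdh19 the lowest, and Clstn1 and Clstn3 are related genes with ratios on opposite sides of 0. Each window covers an annotated start and the bases before it (RefSeq, GRCm38.p6), 5′ to 3′ on the gene's strand. Capitals mark GC boxes (GGGCGG on either strand, bound by SP and KLF factors; in Clstn1 a pair of them overlaps by 1 base) and a TATA box (TATAAA, either strand). They lie at chr14:79771263-79771562 (Pcdh8, minus strand), chrX:133688944-133689243 (Pcdh19, minus strand), chr4:149586218-149586517 (Clstn1, plus strand) and chr6:124464735-124465034 (Clstn3, minus strand, the upstream of its 2 windows).
Pcdh8: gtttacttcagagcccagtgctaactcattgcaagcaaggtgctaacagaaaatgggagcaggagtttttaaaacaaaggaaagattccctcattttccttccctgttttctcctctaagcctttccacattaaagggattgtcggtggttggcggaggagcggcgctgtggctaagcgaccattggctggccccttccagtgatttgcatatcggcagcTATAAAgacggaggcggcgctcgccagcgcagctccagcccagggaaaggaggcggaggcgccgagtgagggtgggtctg
Pcdh19: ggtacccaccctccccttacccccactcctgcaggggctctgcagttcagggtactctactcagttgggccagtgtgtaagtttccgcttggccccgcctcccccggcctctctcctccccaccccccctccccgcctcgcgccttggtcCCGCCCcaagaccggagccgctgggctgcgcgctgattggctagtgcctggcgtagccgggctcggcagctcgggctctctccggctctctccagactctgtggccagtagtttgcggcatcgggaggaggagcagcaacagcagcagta
Clstn1: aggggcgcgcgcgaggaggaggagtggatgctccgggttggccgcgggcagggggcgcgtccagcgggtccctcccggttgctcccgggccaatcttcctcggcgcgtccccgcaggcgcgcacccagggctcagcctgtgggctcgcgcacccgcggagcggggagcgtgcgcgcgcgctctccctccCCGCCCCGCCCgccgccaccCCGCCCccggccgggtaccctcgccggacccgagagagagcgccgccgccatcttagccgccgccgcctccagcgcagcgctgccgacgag
Clstn3: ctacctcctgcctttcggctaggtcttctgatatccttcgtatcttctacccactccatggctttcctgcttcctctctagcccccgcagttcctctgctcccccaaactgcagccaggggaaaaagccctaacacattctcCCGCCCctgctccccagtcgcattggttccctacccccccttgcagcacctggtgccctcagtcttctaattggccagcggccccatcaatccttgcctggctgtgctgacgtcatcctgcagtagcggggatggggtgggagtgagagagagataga
The Pcdh8 window held 14 CpG dinucleotides, a TATA box and no GC box, and the Pcdh19 window 18 CpG and 1 GC box. Of the windows found for members, that of Clstn1 was the richest, with 48 CpG and 3 GC boxes, whereas that of Clstn3 had 8 CpG and 1 GC box. The 32851 windows of the RefSeq promoter table had a median of 7 CpG, 35.7% held a GC box and 13.6% a TATA box. The 19 windows found belonged to 17 members outside the clusters. No window was found for any clustered gene or for Pcdh1, Celsr1, Dchs1, Pcdh11x or Pcdh12. Of the 19 windows, 8 held a GC box, 1 a TATA box and 0 the TCF/LEF core CTTTGAT, which 3.73% of all windows held. A GC box was in 4 of the 8 windows of tested members and in 62.3% of the windows of all tested genes. The 11 windows of 10 members under 1 CPM had a median of 19 CpG, and the 8 windows of tested members 16. The medians were 6 for listed genes under 1 CPM and 20 for genes at 1 CPM or more. These letters describe the windows and are not measured binding sites.

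The calsyntenins shifted in their balance. Clstn1 (Entrez 65945, chromosome 4, 149585111 to 149648899 in GRCm38.p6), which docks amyloid precursor and other vesicles to kinesin light chain, had 2665 counts in cEpiSC and 5538 in mESC, or 130.2 CPM in cEpiSC and 286 CPM in mESC. It was 2.198-fold lower in cEpiSC, a log2 ratio of -1.14 with a counting interval of -1.20 to -1.07. Clstn3 (chromosome 6, 124430756 to 124464784), known in neurons as a synapse organiser, had 1213 counts in cEpiSC and 642 in mESC, a log2 ratio of 0.84 (0.70 to 0.98), which is 1.79-fold and short of a call. Per transcript length, Clstn1 stood at 1.87 times Clstn3 in cEpiSC (51.8 and 27.7 TPM) and at 7.26 times Clstn3 in mESC (117 and 16.2 TPM). Clstn1 was still the more abundant in cEpiSC. Clstn2 was barely present, with 1 count in cEpiSC and 3 in mESC, a ratio of 0.315 whose interval on the log2 scale ran from -7.38 to 1.97.

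Of 10 tested genes whose products work with calsyntenins, 1 was higher and 1 lower, beside 13.6% higher and 9.25% lower of all genes tested. The higher was Aplp1, an amyloid precursor relative, at 87.0 CPM in cEpiSC and 42.5 CPM in mESC (log2 ratio 1.03 [0.91 to 1.15]). The lower was Kif5a, a kinesin heavy chain gene known from neurons, at 1.71 CPM in cEpiSC and 10.9 CPM in mESC (-2.60 [-3.23 to -2.14]). The Aplp1 call was lost on the scale of log2(TPM + 1) (0.97). The gene set's median log2 ratio was -0.36. Klc1, the kinesin light chain gene, stood at 26.7 CPM in cEpiSC and 45.6 CPM in mESC (-0.77, partly shared reads), named after its value was seen because its product is the direct partner of Clstn1. Among 9 proteases of the shedding and gamma-secretase steps that cut these cadherins, 1 was lower, the gamma-secretase subunit gene Ncstn (49.3 CPM in cEpiSC, 104 CPM in mESC, -1.07 [-1.18 to -0.96], counts partly shared with similar loci). That call was lost with library totals (-0.998) and on the scale of log2(FPKM + 1) (-0.96). The median log2 ratio of the 9 was -0.44, and 9.25% of all genes tested were at least 2-fold lower.

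Fat1 supplied nearly all of the Fat transcripts. Fat1 (Entrez 14107, chromosome 8, 44933100 to 45052257), a giant cadherin that acts on actin and Hippo signalling, had 3503 counts in cEpiSC and 5847 in mESC. That is 171 CPM in cEpiSC and 302 CPM in mESC, 1.77-fold lower, with a log2 ratio of -0.82 (-0.88 to -0.76). It was the member with the most counts in both libraries, but per transcript length it ranked below Clstn1, at 20.2 TPM in cEpiSC and 36.6 TPM in mESC. Fat1 made up 99.9% of the summed TPM of the 4 Fat genes in each library. Fat2 had 1 count in cEpiSC and 8 in mESC, a ratio of 0.118 with a log2 interval of -8.55 to -0.18. Fat3 had 2 counts in cEpiSC and 0 in mESC, and Fat4, the mammalian receptor of Dachsous, had 0 in both, which allows up to 0.147 CPM (cEpiSC) and 0.155 CPM (mESC) at a floor of 3 counts. The ligand gene Dchs1 had 12 counts in cEpiSC and 1 in mESC, under 1 CPM in both, with a ratio of 11.3 and a log2 interval of 0.75 to 8.92.

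Among 15 genes of the Fat and Dachsous pathway and its Hippo arm, 3 were higher in cEpiSC, 1 was lower and 11 lay within 2-fold. Their median log2 ratio was 0.04. Over all genes tested, 13.6% were at least 2-fold higher and 9.25% at least 2-fold lower. Under 10 CPM in both libraries, where Mpdz and Lix1 lie, these shares were 32.8% and 12.9%. The higher ones were Fjx1 (12.6 CPM in cEpiSC, 2.12 CPM in mESC, 2.52 [2.09 to 3.09]), whose fly relative is a Golgi kinase that phosphorylates Fat and Dachsous, Mpdz (8.80 CPM in cEpiSC, 2.64 CPM in mESC, 1.70 [1.28 to 2.22]), which encodes a many-PDZ scaffold, and Lix1 (4.35 CPM in cEpiSC, 1.344 CPM in mESC, 1.62, partly shared reads). Tead1, which encodes a DNA-binding partner of YAP, was the lower one, at 67.1 CPM in cEpiSC and 168 CPM in mESC (-1.32 [-1.42 to -1.23]). Yap1 itself stood at 196 CPM in cEpiSC and 186 CPM in mESC (0.07).

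All 3 Celsr genes had log2 ratios below 0, and 2 passed 2-fold. Of all 13243 genes tested, 6782 had a ratio below 0 and 9.25% were at least 2-fold lower. In the longest of 10 bins of transcript length, where all 3 lie, the median was -0.32 and 15.9% were at least 2-fold lower. Celsr1 (Entrez 12614, chromosome 15, 85898758 to 86034223), the family member of epithelial planar polarity, had 510 counts in cEpiSC and 1093 in mESC (24.9 CPM in cEpiSC, 56.5 CPM in mESC), a log2 ratio of -1.18 (-1.335 to -1.03). Celsr3 (chromosome 9, 108826023 to 108852969), known for axon guidance, had 63 counts in cEpiSC and 133 in mESC, a log2 ratio of -1.13 whose interval reached -0.72. Celsr2 (chromosome 3, 108390848 to 108416069), known from neural development and from the cilia of ependymal cells, had 96 counts in cEpiSC and 130 in mESC, at -0.51 (-0.91 to -0.13). Celsr1 held 77.8% of the family's TPM in cEpiSC and 82.6% in mESC, so the family level followed Celsr1. On the scale of log2(FPKM + 1), where the added 1 shrinks ratios of weakly expressed genes, the differences were -0.87 for Celsr1, -0.32 for Celsr3 and -0.14 for Celsr2.

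The polarity proteins that Celsr works with were examined as a set of 15 tested genes. Of these, 4 were at least 2-fold lower in cEpiSC, 0 higher and 11 less than 2-fold apart, beside 9.25% lower and 13.6% higher of all genes tested. The set's median log2 ratio was -0.45. An interval wholly beyond 2-fold lower was held by 6.34% of all genes tested and by all 4 of these. They were Prickle3 (2.10 CPM in cEpiSC, 10.025 CPM in mESC, -2.201, with shared reads), Prickle2 (7.67 CPM in cEpiSC, 26.5 CPM in mESC, -1.78 [-2.06 to -1.53]), the Wnt5a receptor gene Ror2 (17.3 CPM in cEpiSC, 49.1 CPM in mESC, -1.50) and the Dishevelled gene Dvl3 (31.4 CPM in cEpiSC, 73.1 CPM in mESC, -1.22). Vangl2, which encodes a membrane protein of the same complex, stood at 27.0 CPM in cEpiSC and 45.5 CPM in mESC (-0.75), and the Frizzled gene Fzd3 at 11.9 CPM in cEpiSC and 6.30 CPM in mESC (0.90). Ptk7, the most abundant of the set, differed little (248 CPM in cEpiSC, 253 CPM in mESC). Vangl2, Fzd3 and Ptk7 were named after their values were seen.

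Of 11 protocadherins outside the clusters, 3 were tested, and each was apart by more than 4-fold. Over all genes tested, 13.6% were at least 2-fold higher and 9.25% at least 2-fold lower. Pcdh8 and Pcdh19 lay under 10 CPM in both libraries, where these shares were 32.8% and 12.9%. Pcdh1 (Entrez 75599, chromosome 18, 38185914 to 38212048), an adhesion protein of epithelia and of airway cells, had 564 counts in cEpiSC and 61 in mESC, or 27.6 CPM in cEpiSC and 3.15 CPM in mESC. It was 8.74-fold higher, with a log2 ratio of 3.09 (2.75 to 3.53), and it made up most of the counts of these 11 genes in cEpiSC. Pcdh8 (Entrez 18530, chromosome 14, 79766772 to 79771312), also called PAPC for its place in the paraxial mesoderm and known to act in cell movement there, had 76 counts in cEpiSC and 3 in mESC, a 24.0-fold difference. Its log2 ratio of 3.90 had the wide interval of 2.98 to 6.89, since the mESC library held so few counts. Pcdh19 (Entrez 279653, chromosome X, 133582860 to 133689044), the gene of a female-limited epilepsy in humans, had 32 counts in cEpiSC and 171 in mESC. It was 5.65-fold lower, with a log2 ratio of -2.43 (-3.09 to -1.95), and led these 11 genes in mESC by counts. Per transcript length, Pcdh19 stood at 1.58 TPM in mESC, close to Pcdh1 at 1.47 TPM. On the scale of log2(FPKM + 1), which understates ratios of weakly expressed genes, Pcdh1 stood at 2.21, Pcdh8 at 0.94 and Pcdh19 at -0.68.

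The remaining 8 stayed at or near 0. Pcdh18 had 1 count in cEpiSC and 3 in mESC, Pcdh10 and Pcdh12 had 2 counts each in cEpiSC and 0 in mESC, and Pcdh7 had 1 in cEpiSC and 0 in mESC. Pcdh9, Pcdh11x, Pcdh17 and Pcdh20 had 0 counts in both libraries. No direction can be read for any of them at this depth. Pcdh8, Pcdh10, Pcdh17, Pcdh18 and Pcdh19 form a subfamily in which the tails of some members bind the WAVE actin regulator. Only Pcdh8 and Pcdh19 of these 5 reached 1 CPM in a library. Of the 11 WAVE genes, 1 was higher, Cyfip2 (61.5 CPM in cEpiSC, 30.6 CPM in mESC, 1.01 [0.87 to 1.15]), while the other 10 were less than 2-fold apart. On the scales of log2(TPM + 1) and log2(FPKM + 1) Cyfip2 was at 0.89 and 0.94 and lost its call. The median log2 ratio was -0.23, and of all genes tested 13.6% were at least 2-fold higher.

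Pcdh8 and other protocadherins are also expressed in neural and mesodermal cells, so marker genes of those cells are set beside them. The part of such cells in the ratios was not tested, and in bulk RNA fewer cells of a type and less RNA per cell cannot be told apart. For scale, 13.6% of all genes tested were at least 2-fold higher and 9.25% at least 2-fold lower. Among those under 10 CPM in both libraries these shares were 32.8% and 12.9%. Of 12 neural markers, 7 were tested, with 3 higher and 2 lower, and their summed level was 63.6 CPM in cEpiSC and 110 CPM in mESC. Neurod1 (165 counts in cEpiSC, 2 in mESC), Elavl3 (86 in cEpiSC, 12 in mESC) and Pax6 (33 in cEpiSC, 2 in mESC, partly shared reads) were the higher ones. Tubb3 was lower (25.9 CPM in cEpiSC, 69.7 CPM in mESC), as was Nes (11.9 CPM in cEpiSC, 25.9 CPM in mESC). Tubb3 and Nes held most of the summed neural level in each library, so the sum does not speak for the other neural markers. Dcx and Pax3 had 0 counts in both libraries, and Hes5 had 0 in cEpiSC and 3 in mESC. Of 11 matched primitive streak and mesoderm markers, 7 were tested, 2 were higher and 4 lower, with a sum of 19.9 CPM in cEpiSC and 34.1 CPM in mESC. Msgn1, a marker of the paraxial mesoderm in which Pcdh8 is known, had 0 counts in both, Tbx6 had 11 in each, Gsc had 6 in cEpiSC and 264 in mESC, and Mixl1 had 5 in cEpiSC and 26 in mESC. Gsc (0.29 CPM in cEpiSC, 13.6 CPM in mESC) made up most of the gap between the streak and mesoderm sums. Hand1 was higher at 38 counts in cEpiSC and 3 in mESC, and Kdr was lower at 5 in cEpiSC and 42 in mESC. The 11 endoderm and trophectoderm markers summed to 55.1 CPM in cEpiSC and 116 CPM in mESC, with 2 of 7 tested higher (Ascl2 and Hand1) and 3 lower (Dab2, Krt8 and Gata4). Most of that sum lay in Dab2 (16.6 CPM in cEpiSC, 59.8 CPM in mESC) and Krt8 (19.0 CPM in cEpiSC, 39.1 CPM in mESC). Cdx2 and Foxa2 had 0 counts in cEpiSC, with 5 and 1 in mESC. The 10 fibroblast markers summed to 18.9 CPM in cEpiSC and 19.5 CPM in mESC. Of the 5 tested, 2 were higher (Twist1 and Thy1) and 1 lower (Pdgfrb), Postn had 0 counts in both and Lum 0 in cEpiSC.

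**Figure D2:**
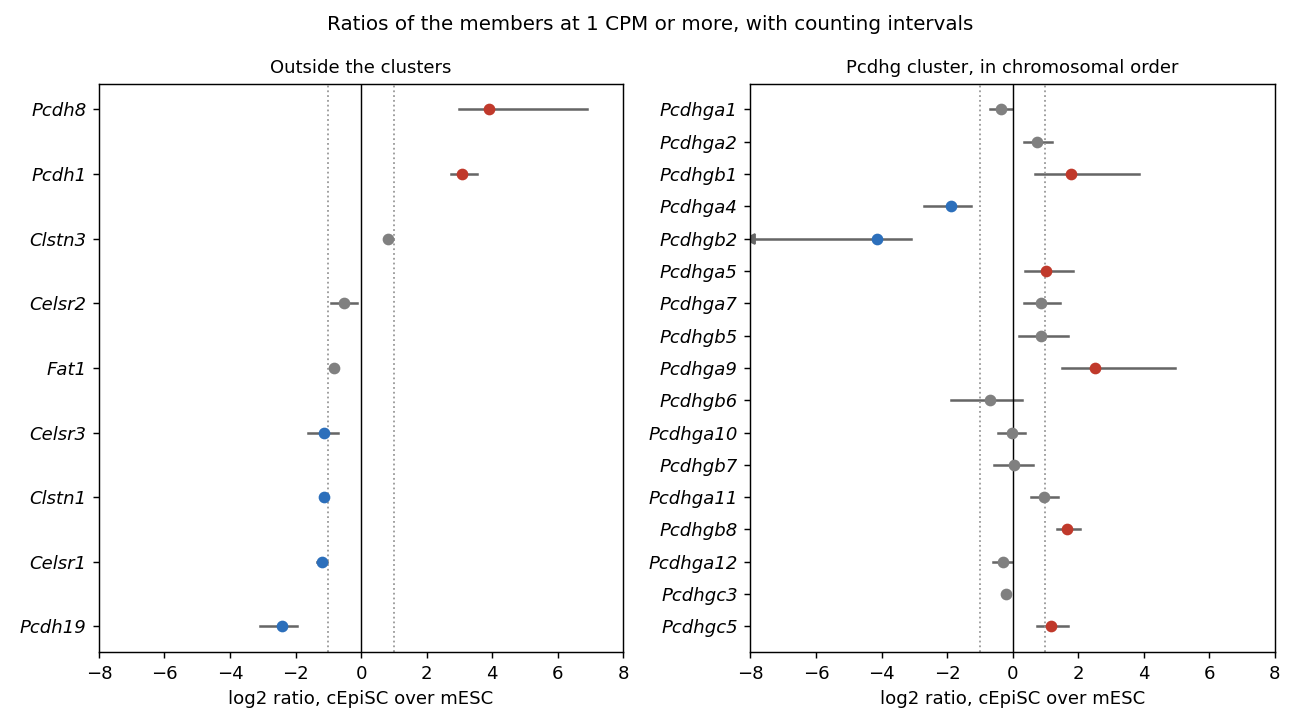
Log2 ratio of cEpiSC over mESC (horizontal axis) for the 9 members tested outside the clusters (left) and the 17 tested Pcdhg genes in chromosomal order (right), with 95% counting intervals as bars and dotted lines at 2-fold. Points at least 2-fold higher are red and those at least 2-fold lower blue; the bar with an arrowhead belongs to Pcdhgb2, which had 0 counts in cEpiSC.

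The clustered protocadherins lie side by side on chromosome 18. Transcripts of the alpha and gamma clusters join a variable first exon, different in each gene, to constant exons common to the cluster, while beta genes consist of 1 exon. By the GENCODE vM21 annotation, the longest Pcdhg transcripts had a median length of 4722 bases, of which a median of 2119 bases or 44.9% were shared with other members. For 8 annotated Pcdha genes the shared part was 2860 bases, a median of 53.5%. All 22 Pcdhg genes had counts that were not whole numbers, as arises when reads of common exons are divided among genes. The level of a single Pcdhg gene is therefore an estimate, less certain than its counting interval, whereas the sum of the cluster does not depend on how its members divide their reads.

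The gamma cluster was active in both states, and the listed genes of the alpha and beta clusters were silent or nearly so. The 22 Pcdhg genes (chromosome 18, 37661775 to 37841873) summed to 2781 counts in cEpiSC and 2495 in mESC. That is 135.9 CPM in cEpiSC and 128.9 CPM in mESC, a log2 ratio of 0.08 (-0.00 to 0.15), which became 0.15 with library totals and 0.22 after centring on transcript length. The sums thus lay close together under each scaling, and whether they differ rests on the scaling chosen. The 9 listed Pcdha genes held 4 counts in cEpiSC, all in the C-type gene Pcdhac2, and 0 in mESC, which allows up to 0.155 CPM. Pcdha1, Pcdha2, Pcdha5, Pcdha6 and Pcdha8 were not among the listed genes, so the alpha cluster was not fully covered. The 22 Pcdhb genes held 1 count in cEpiSC, in Pcdhb17, and 2 in mESC, in Pcdhb14 and Pcdhb22. In all, 27 of the 53 clustered genes had 0 counts in both libraries, and 17, all of them Pcdhg, reached 1 CPM.

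Pcdhgc3 dominated the gamma cluster in both libraries. Pcdhgc3 is a C-type gene, a class that is expressed steadily in neurons rather than by choice among exons. It had 1298 counts in cEpiSC and 1407 in mESC, or 24.0 TPM in cEpiSC and 28.4 TPM in mESC, with a log2 ratio of -0.20 (-0.31 to -0.09). Its share of the Pcdhg counts was 46.7% in cEpiSC (Wilson 95% interval 44.8 to 48.5%) and 56.4% in mESC (54.4 to 58.3%), intervals that cover counting error only. The neighbouring C-type gene Pcdhgc5 had 132 counts in cEpiSC and 54 in mESC (1.18 [0.74 to 1.69]), and Pcdhgc4, between them, had 0 counts in cEpiSC and 3 in mESC. Pcdhac1, a C-type gene of the alpha cluster, had 0 in both.

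The remaining A- and B-type Pcdhg genes were low, spread along the cluster and uneven in direction. The 12 A-type genes summed to 921 counts in cEpiSC and 804 in mESC (0.11 [-0.02 to 0.25]). The 7 B-type genes summed to 431 counts in cEpiSC and 226 in mESC (0.85 [0.62 to 1.09]), and their share of the cluster was 15.5% in cEpiSC and 9.06% in mESC. The B-type difference was that of 1 gene, Pcdhgb8, with 294 counts in cEpiSC and 86 in mESC (14.4 CPM in cEpiSC, 4.44 CPM in mESC, 1.67 [1.341 to 2.06]). GENCODE vM21 classes Pcdhgb8 as a polymorphic pseudogene. The other 6 B-type genes summed to 137 counts in cEpiSC and 140 in mESC (-0.11 [-0.46 to 0.24]). Without Pcdhgc3, the other 21 genes summed to 72.5 CPM in cEpiSC and 56.2 CPM in mESC (0.37 [0.25 to 0.48]).

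Of the 17 tested Pcdhg genes, 5 (29.4%) were higher in cEpiSC by 2-fold or more, 2 (11.8%) were lower and 10 lay between, with a median log2 ratio of 0.75. Of the 17, 14 lay under 10 CPM in both libraries. In that range 32.8% of all tested genes were at least 2-fold higher and 12.9% at least 2-fold lower, and their median was 0.36. The shares of the 17 Pcdhg genes past 2-fold were close to these, although 3 of the 17, Pcdhgb8 among them, lay at 10 CPM or more. The median of the 17, at 0.75, was above 0.36. The higher genes were Pcdhga9 (34 counts in cEpiSC, 4 in mESC, 2.52), Pcdhgb1 (23 in cEpiSC, 5 in mESC, 1.77), Pcdhgb8, Pcdhgc5 and Pcdhga5 (54 in cEpiSC, 24 in mESC, 1.03). Of these 5, Pcdhga9 and Pcdhgb8 had an interval wholly past 2-fold, as did both lower genes. The lower genes were Pcdhga4 (22 counts in cEpiSC, 81 in mESC, -1.87 [-2.71 to -1.27]) and Pcdhgb2 (0 counts in cEpiSC, 32 in mESC). With its 0 set at a floor of 3 counts, Pcdhgb2 was 11.3-fold lower. The upper end of its log2 counting interval was -3.11, and its reads are partly shared. On the scale of log2(TPM + 1), Pcdhgb8 was the 1 gene still past 2-fold upwards and 0 were past it downwards. Pcdhga12 and Pcdhga1, with Pcdhgc3 and Pcdhgb8 among the more abundant Pcdhg genes, differed little: Pcdhga12 had 180 counts in cEpiSC and 210 in mESC, and Pcdhga1 137 in cEpiSC and 165 in mESC.

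Detection along the cluster was patchy. In cEpiSC 17 of the 22 Pcdhg genes had a count and in mESC 21. Listed at 0 in cEpiSC were Pcdhga3, Pcdhgb2, Pcdhgb4, Pcdhga8 and Pcdhgc4, with 16, 32, 9, 12 and 3 counts in mESC. Listed at 0 in mESC was Pcdhga6, with 16 counts in cEpiSC. Where reads are divided among genes, a listed 0 can be an outcome of that division and is not shown to be an absence of transcript. Genes at 0 had neighbours with counts in the same library: in mESC, Pcdhga5 (24) and Pcdhga7 (44) flank Pcdhga6, and in cEpiSC, Pcdhga7 (86) and Pcdhgb5 (48) flank Pcdhgb4 and Pcdhga8. These genes and Pcdhga1 were named after their values were seen.

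**Figure D3:**
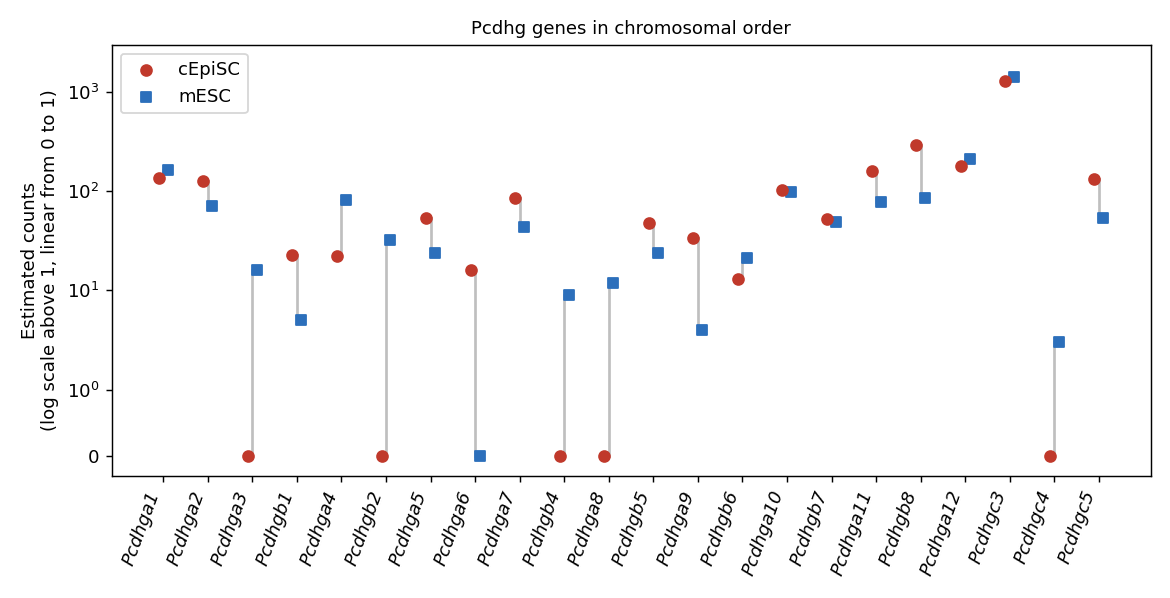
Estimated counts (vertical axis, logarithmic above 1) of the 22 Pcdhg genes in their order on the chromosome, with 1 point for the cEpiSC library (circle) and 1 for the mESC library (square). Pcdhgc3 stands above all others at 1298 in cEpiSC and 1407 in mESC, and 6 genes are at 0 in 1 of the libraries.

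Proteins known to control the clusters were examined next. In neurons, CTCF and cohesin loop an enhancer to the chosen promoter, DNA methylation by DNMT3B marks promoters in the early embryo, and SMCHD1 helps to silence the clusters. Of 17 such genes, 2 were higher in cEpiSC, 1 was lower and 14 were less than 2-fold apart. The median log2 ratio was -0.27. Of all genes tested, 13.6% were at least 2-fold higher and 9.25% at least 2-fold lower. The higher ones were the methyltransferase genes Dnmt3a (462 CPM in cEpiSC, 20.9 CPM in mESC, 4.46) and Dnmt3b (280 CPM in cEpiSC, 50.4 CPM in mESC, 2.47). Stag1, a cohesin subunit gene, was the lower at 76.0 CPM in cEpiSC and 154 CPM in mESC (-1.02 [-1.11 to -0.93]). That call was lost with library totals (-0.95), on the scale of log2(FPKM + 1) (-0.90) and after centring on length (-0.87). Its alternative, Stag2, stood at 148 CPM in cEpiSC and 97.9 CPM in mESC (0.59). Ctcf stood at 154 CPM in cEpiSC and 183 CPM in mESC (-0.26, partly shared reads), and Smchd1 at 106 CPM in cEpiSC and 105 CPM in mESC (0.01). Stag2, Ctcf and Smchd1 were named after their values were seen.

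Of 5 genes for kinases and scaffolds that bind the tails of clustered protocadherins, 1 was higher and 4 were less than 2-fold apart. Their median log2 ratio was 0.54, and 13.6% of all genes tested were at least 2-fold higher. The higher was Ptk2b, which encodes PYK2, a kinase that protocadherin tails hold in check, at 26.5 CPM in cEpiSC and 9.35 CPM in mESC (1.49 [1.26 to 1.75]). Its relative Ptk2, the gene of focal adhesion kinase, stood at 106 CPM in cEpiSC and 73.1 CPM in mESC (0.54), named after its value was seen.

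**Figure D4:**
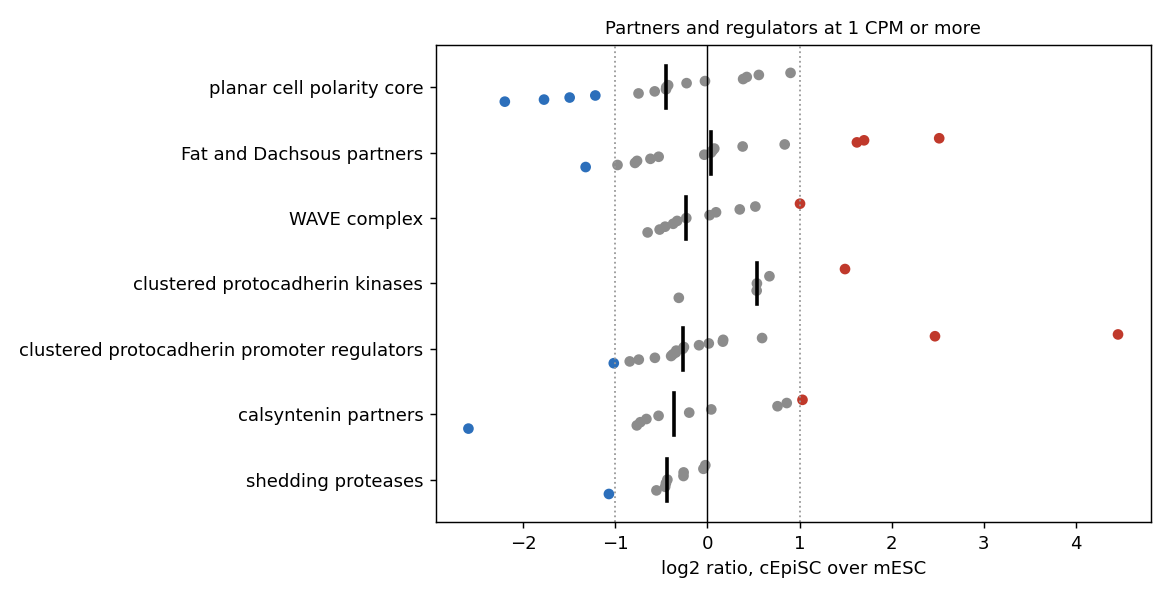
Log2 ratio of cEpiSC over mESC (horizontal axis) for each tested gene of the 7 sets of partners and regulators, 1 point per gene, with the median as a black bar and dotted lines at 2-fold. The 4 planar cell polarity genes past 2-fold are all on the lower side, and Dnmt3a and Dnmt3b are the rightmost points of the promoter regulators.

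Transcript length moved with the ratios. Cut into 10 equal bins of effective length, all tested genes had a median log2 ratio of 0.17 in the shortest bin and -0.32 in the longest, which begins at 5863 bases, and in the longest bin 15.9% were at least 2-fold lower. Of the 9 members tested outside the clusters, 5 lay in that longest bin, namely Fat1, Celsr1, Celsr2, Celsr3 and Pcdh19. After subtracting the median of each bin, Celsr1 (-0.86), Celsr3 (-0.82) and Fat1 (-0.50) were within 2-fold, while Pcdh19 stayed at -2.11. Clstn1, in a shorter bin, was at -1.04, Pcdh1 at 3.18 and Pcdh8 at 3.995. The part of length in the Celsr and Fat1 ratios was not tested beyond this.

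**Figure D5:**
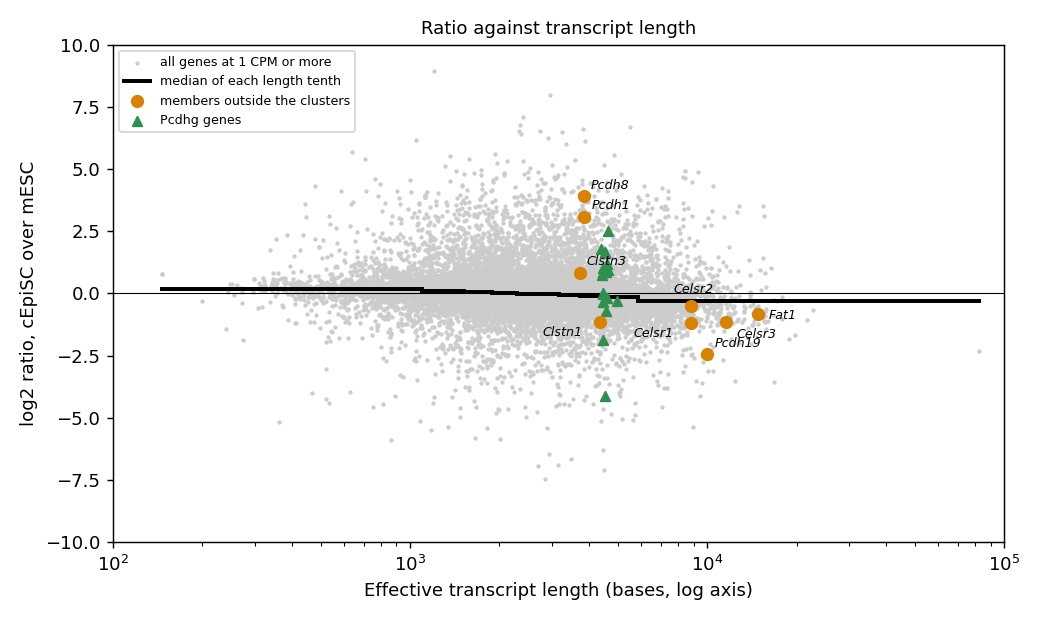
Log2 ratio of cEpiSC over mESC (vertical axis) against effective transcript length in bases (horizontal axis, logarithmic) for genes at 1 CPM or more (grey), members outside the clusters (orange circles) and Pcdhg genes (green triangles), with the median of each length bin in black. The median falls to -0.32 in the longest bin, where Fat1, the Celsr genes and Pcdh19 lie.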

How the data were processed

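Polyadenylated RNA was sequenced from 1 cEpiSC and 1 mESC library. Per the labels' protocols, oligo(dT) beads enriched mRNA and dUTP marked the second strand. Whether counting used strand is not given in the sources used here, so reads of antisense neighbours, annotated over 9.61% of Pcdh8 and 3.11% of Fat1 exonic bases, may be included. Build GRCm38.p6 and the tools RSEM 1.3.1, HISAT2, Bowtie2 and DESeq2 1.34.0 appear in the submitters' processing notes, with no step given for any. The authors deposited estimated counts without scaling, and 11.9% (cEpiSC) and 11.3% (mESC) of genes differ by more than 0.005 from a whole number. TPM and FPKM values were deposited by the authors per length and library. Columns of no sample numbered 0.

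Counts were rounded and scaled with TMM in edgeR 4.0.16 (R 4.3.3; factors 1.03 for cEpiSC and 0.975 for mESC). Log2 ratios used a prior count of 2. Fold values and exact conditional 95% intervals used none and cover counting error only, since copies made by PCR are not independent molecules. Genes at 1 CPM or more in a library (13243) were compared, and called at 2-fold by size alone. A gene at 0 was set against 3 counts. Effective length came from counts and FPKM. Coordinates matched RefSeq by Entrez identifier for all 75 members. Code was checked on simulated data.

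The members and 13 gene lists were chosen with earlier results of these data known. All members outside the clusters were named. Clustered ones were named if at least 2-fold apart, of C type, or among the 3 highest of a cluster by TPM. From each list up to 4 genes at least 2-fold apart were named, or else the 2 most abundant, and others after their values were seen. Alternatives were DESeq2 1.42.0 size factors, library totals, no filter or 5 CPM, prior counts of 0.5 and 5, TPM and FPKM with a pseudocount of 1, centring on length, and only genes with whole counts. Python 3.11.15 did the rest.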

Additional observations from a re-analysis of the deposited data

How the results depend on the processing

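No paired analysis was possible because each state has 1 library. Of the 26 tested members, 16 could be followed at 5 CPM and 9 with whole counts, and all 26 under the other alternatives. Where followed, members kept their direction except for a pair near 0: Pcdhgb7, at 0.03, was exactly 0 with TPM, and Pcdhga10, whose ratio of -0.02 became 0.05 with library totals, 0.03 with FPKM and 0.07 with length centring, changed sign. DESeq2 size factors changed no call.

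Outside the clusters, the 2 higher members became 1 at 5 CPM and 1 with FPKM, and the 4 lower became 1 with FPKM and 2 with length centring, where Celsr1 and Celsr3 lost their calls. The median of -0.82 became -0.51 with no filter, -0.98 at 5 CPM, -0.50 with TPM, -0.32 with FPKM and -0.50 with length centring. Medians with no filter, here and for the clustered genes, still leave out genes at 0 counts in both libraries. Among clustered genes, the 5 higher became 2 at 5 CPM, 1 with TPM, 1 with FPKM and 2 when the counting interval had to lie beyond 2-fold, a rule chosen after seeing the data. The 2 lower became 6 with no filter and 0 at 5 CPM, with TPM and with FPKM. Their median of 0.75 became 0.0040 with no filter, 0.37 at 5 CPM, 0.37 with TPM and 0.26 with FPKM. It was 0.75 with the 0 of Pcdhgb2 set at 3 counts. The Pcdhg sum of 0.08 became 0.22 with length centring. Context genes past 2-fold numbered 47, and 28 with FPKM. Among the protease genes the 1 lower became 0 with library totals, FPKM and whole counts, and among the Fat and Dachsous partners the 3 higher became 1 with TPM and 1 with FPKM. Length centring put 1 planar cell polarity gene past 2-fold on the higher side. A pseudocount of 1 shrinks the ratios of weakly expressed genes by construction, and a higher filter leaves fewer genes. The cause of the other shifts was not tested.

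Sums of the listed Pcdha and Pcdhb genes held at most 4 counts, so no ratio was formed for them, and with only whole counts no clustered gene was left. Of the 49 members under 1 CPM, 32 had 0 counts in both libraries. Whether depth, the division of shared reads or absent transcript lies behind their low counts was not tested.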
